A study of Mus musculus with 18 samples.

Results

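The aorta of HGPS mice held about 6 times the Pgf RNA and about 2 times the Pdgfc RNA of age-matched WT aorta, with less Pdgfra, Pdgfrb and Pdgfd and no detectable difference in Vegfa. The genes described are 10 members of the platelet-derived growth factor (PDGF) and vascular endothelial growth factor (VEGF) families: the PDGF ligand genes Pdgfa, Pdgfb, Pdgfc and Pdgfd, the PDGF receptor genes Pdgfra and Pdgfrb, and the VEGF family ligand genes Vegfa, Vegfb, Vegfc and Pgf. They were taken by gene symbol from the 54281 genes of the deposited count table, 1 entry per symbol, and all 10 passed the filter on low counts. RNA was sequenced from whole descending aorta, with the intima, media and adventitia together, of male C57BL/6 mice. The 6 HGPS mice (genotype label LMNAG609G, 64 to 75 d old) carry a point mutation knocked into the Lmna gene, so that progerin, a truncated lamin A, is made wherever that gene is active, and HGPS stands for Hutchinson–Gilford Progeria Syndrome. In the 2-mo WT group 5 mice had reached 62 d and 1 had reached 95 d, while ages in the 24-mo WT group, also 6 mice, ran from 609 to 762 d. No group received a treatment. Each library is 1 mouse, and nothing in the labels ties mice of different groups to each other.

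PDGF ligands are made as chains that pair into dimers and bind 2 receptor tyrosine kinases, PDGFRα on fibroblasts and other mesenchymal cells and PDGFRβ on smooth muscle cells and pericytes. They drive division and migration of mural cells, and PDGF-C and PDGF-D need a protease to release the active growth factor domain. VEGF-A acts on endothelial cells through VEGFR2, the product of Kdr, and VEGFR1, the product of Flt1. PlGF, the product of Pgf, and VEGF-B bind VEGFR1, and VEGF-C and VEGF-D bind VEGFR3, the product of Flt4, on lymphatic endothelium.

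Library totals lay between 12413229 and 30844775 counts, with medians by group of 22752394 in HGPS, 18031579 in 2-mo WT and 17964166 in 24-mo WT. Values are given in CPM, the counts of a gene relative to the library total after TMM scaling, and genes were compared with edgeR's quasi-likelihood test over 15210 genes. Changed means an adjusted p under 0.05, and the study's stricter cut-offs are 1.5-fold and an adjusted p under 0.001. Lmna itself was at 445 to 653 CPM in HGPS and 340 to 486 CPM in 2-mo WT (log2 fold change 0.47 ± 0.12, SE, adjusted p = 0.00383), and total Lmna counts do not tell progerin from lamin A. Markers of other cells moved with the HGPS group. All 7 macrophage markers and all 7 cell cycle genes rose in HGPS against 2-mo WT, the macrophage markers with a summed level of 741 to 1173 CPM against 396 to 589 CPM. Of the fat markers, 11 of 12 for brown fat and 7 of 8 for white fat rose, and 5 of 8 smooth muscle markers fell, their summed level being 19677 to 27420 CPM in HGPS and 29496 to 38018 CPM in 2-mo WT. Of the 9 endothelial markers, 0 changed by edgeR in any comparison, 0 had an unadjusted p under 0.05, and DESeq2 called 0. No macrophage, white fat, smooth muscle or endothelial marker was at 0 in any mouse. In whole aorta, fewer cells of a type and less RNA per cell cannot be told apart.

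In HGPS against 2-mo WT, 7 of the 10 genes changed, where 43.2% of all genes did. Pgf, Pdgfc and Pdgfb rose, which is 3 genes against 22% of all genes that rose, and Pdgfra, Pdgfrb, Pdgfd and Vegfc fell, which is 4 genes against 21.2%. Of these, 3 passed the study's cut-offs (9.50% of all genes), namely Pgf and Pdgfc upward and Pdgfra downward. In 5 genes, the 6 HGPS mice and the 6 2-mo WT mice did not overlap (21.9% of all genes). In 24-mo WT against 2-mo WT, 5 of the 10 changed, where 11.7% of all genes did. There, Pgf, Pdgfc, Pdgfb and Vegfb rose (6.29% of all genes rose) and Vegfc fell (5.38% fell). Pgf and Pdgfc passed the study's cut-offs (2.00% of all genes), a count of 2 that fell to 0 without 2-mo WT replicate 1, 2, 4 or 5 or 24-mo WT replicate 3 and in a fit of these 2 groups alone. Of the 10 genes, only Pdgfc had groups that did not overlap (6.28%). The median log2 fold change of the 10 genes was 0.07 in HGPS against 2-mo WT and 0.08 in 24-mo WT against 2-mo WT, beside 0.00 and 0.01 for all genes. Both comparisons share the 2-mo WT mice, so HGPS was also set directly against 24-mo WT. In that comparison 4 genes changed by edgeR (47.3% of all genes) and 5 by DESeq2, which added Pgf. By edgeR, Pdgfc was higher in HGPS (23.8% of all genes were higher), and Pdgfra, Pdgfrb and Pdgfd were lower (23.6%). Pdgfra alone passed the study's cut-offs (12.1%), though not without HGPS replicate 3, and had groups that did not overlap (22.2%).

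**Figure D1:**
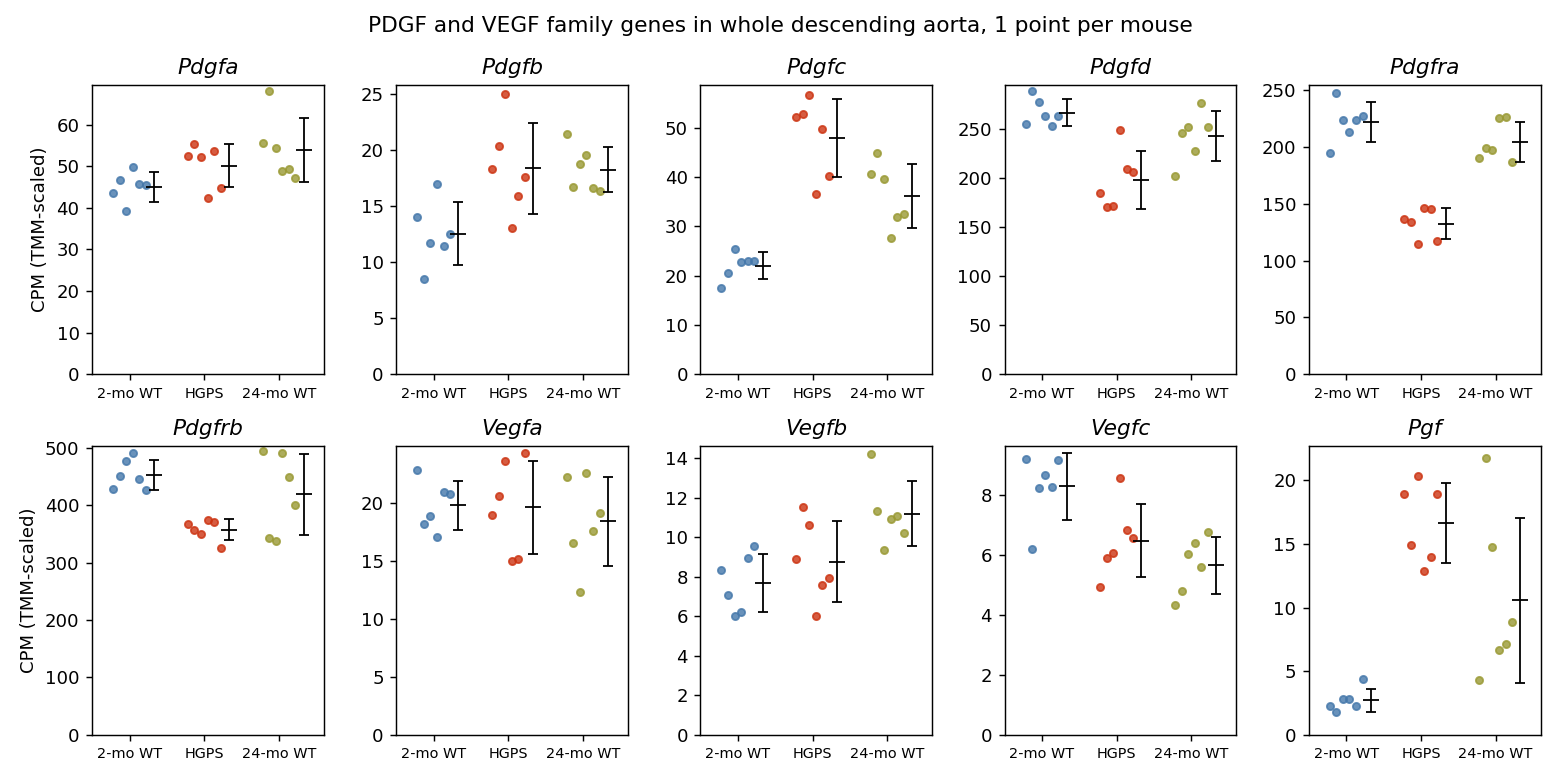
Expression of the 10 genes in CPM (vertical axes from 0) by group, with 1 point per mouse and the mean ± SD beside the 6 points of each group. Pgf lies between 12.9 and 20.3 CPM in HGPS and between 1.78 and 4.39 CPM in 2-mo WT, while the 24-mo WT mice spread from 4.27 to 21.7 CPM.

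Pgf, Pdgfc and Pdgfra passed the study's cut-offs in HGPS, and the RefSeq sequence around their start sites is shown so that the genes that moved most can be seen beside each other. Each window runs from 250 bases before to 50 bases after an annotated start on GRCm38.p6, 5′ to 3′ on the gene's strand. Pgf (ENSMUSG00000004791, GRCm38, chromosome 12, 85166635 to 85177790, minus strand) has 2 such windows, of which the more upstream is printed (chr12:85177264-85177563, minus strand). The Pdgfc window (ENSMUSG00000028019, chromosome 3, 81036416 to 81214040, plus strand) is chr3:81036166-81036465, and the Pdgfra window (ENSMUSG00000029231, chromosome 5, 75152292 to 75198215, plus strand) is chr5:75152001-75152300. Capitals mark matches, on either strand, to the GC box GGGCGG, to the hypoxia core ACGTG or GCGTG, to the TATA box TATAAA and to the AP-1 site TGACTCA, whose reverse complement is TGAGTCA.
Pgf: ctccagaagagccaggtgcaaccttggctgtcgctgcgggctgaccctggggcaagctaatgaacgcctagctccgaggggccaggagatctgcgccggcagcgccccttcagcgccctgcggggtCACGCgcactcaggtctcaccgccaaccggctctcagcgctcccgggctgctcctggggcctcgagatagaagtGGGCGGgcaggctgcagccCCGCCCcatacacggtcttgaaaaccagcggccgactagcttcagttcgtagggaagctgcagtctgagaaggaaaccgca
Pdgfc: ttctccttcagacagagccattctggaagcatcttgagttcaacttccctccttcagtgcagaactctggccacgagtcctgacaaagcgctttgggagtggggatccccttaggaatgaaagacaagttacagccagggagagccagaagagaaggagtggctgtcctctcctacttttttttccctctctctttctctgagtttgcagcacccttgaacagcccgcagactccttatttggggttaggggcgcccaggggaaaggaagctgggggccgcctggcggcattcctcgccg
Pdgfra: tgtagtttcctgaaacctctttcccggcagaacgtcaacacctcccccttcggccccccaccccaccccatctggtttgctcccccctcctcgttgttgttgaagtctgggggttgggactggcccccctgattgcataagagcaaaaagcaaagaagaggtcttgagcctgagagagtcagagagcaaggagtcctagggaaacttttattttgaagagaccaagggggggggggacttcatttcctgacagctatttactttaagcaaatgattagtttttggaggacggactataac

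The Pgf window held 2 GC boxes and 1 hypoxia core, with 66.0% G and C, and the other Pgf window held no match. The windows of Pdgfc (55.0% G and C) and Pdgfra (51.0%) held no match to any of the 4 motifs. Over the 32851 promoters of the same length, a GC box was found in 35.7%, a hypoxia core in 43.8%, a TATA box in 13.6% and an AP-1 site in 5.20%. RefSeq windows were at hand for 8 of the 10 genes, all except Pdgfb and Pdgfrb. A match is a string of letters and not a site of binding.

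Pgf encodes placental growth factor, a ligand of VEGFR1. Its lowest, median and highest values were 12.9, 16.9 and 20.3 CPM in HGPS, 1.78, 2.52 and 4.39 CPM in 2-mo WT, and 4.27, 8.0 and 21.7 CPM in 24-mo WT. All 6 HGPS mice lay above all 2-mo WT mice, and the 24-mo WT mice overlapped with both groups. Pgf rose 6.11-fold in HGPS against 2-mo WT (log2 fold change 2.61 ± 0.32, SE, adjusted p = 4.97e-06). It rose 3.86-fold in 24-mo WT against 2-mo WT (1.95 ± 0.32, adjusted p = 0.000383). The direct difference between HGPS and 24-mo WT was 0.66 ± 0.29 with an adjusted p of 0.0646, and it passed the test without the 24-mo WT mouse of 21.7 CPM (0.99, adjusted p = 0.00312) or without the next highest 24-mo WT mouse (0.78, adjusted p = 0.0402). DESeq2 also called it (0.66, adjusted p = 0.0468). The highest 2-mo WT mouse, at 4.39 CPM, was the one of 95 d. The highest and the lowest 24-mo WT mice, at 21.7 and 4.27 CPM, were both 651 d old. Across the 18 mice, as deviations from the group means, Pgf went with the endothelial marker score (r = 0.683) and the macrophage score (r = 0.617), values that share libraries and scaling. With the endothelial score as a covariate the HGPS difference was 2.68 ± 0.24 (adjusted p = 1.97e-07). With the macrophage score it was 1.36 ± 0.40 (adjusted p = 0.0305), and with the smooth muscle score 1.83 ± 0.66 (adjusted p = 0.23). The endothelial score overlapped between HGPS and 2-mo WT. The macrophage and smooth muscle scores had no overlap between these groups, so in those fits score and group cannot be told apart. The part of these cells in the result was not tested.

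Pdgfc encodes PDGF-C, a ligand that acts mainly through PDGFRα. It was at 36.5, 51.0 and 56.8 CPM (lowest, median and highest) in HGPS, at 17.5, 22.9 and 25.4 CPM in 2-mo WT and at 27.7, 36.1 and 45 CPM in 24-mo WT. Both other groups lay wholly above 2-mo WT. Pdgfc rose 2.18-fold in HGPS (1.13 ± 0.13, adjusted p = 1.92e-06) and 1.64-fold in 24-mo WT (0.72 ± 0.13, adjusted p = 0.000737). Set against 24-mo WT, Pdgfc was higher in HGPS (0.41 ± 0.12, adjusted p = 0.0106), although those 2 groups overlapped, and the HGPS mice of library numbers 48 to 50 alone gave 0.23 ± 0.14 (adjusted p = 0.23). That call was also lost with both fat scores as covariates (0.34 ± 0.19, adjusted p = 0.181). With the smooth muscle score as a covariate the HGPS value was 1.19 ± 0.28 (adjusted p = 0.0579). With the fibroblast score the 24-mo WT value was 0.43 ± 0.21 (adjusted p = 0.288). In both fits the score had no overlap between the groups compared, so score and group cannot be told apart.

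Pdgfd encodes PDGF-D, a ligand of PDGFRβ (ENSMUSG00000032006, chromosome 9, 6168584 to 6378850). It was at 171, 195 and 249 CPM in HGPS, at 253, 263 and 289 CPM in 2-mo WT and at 202, 249 and 277 CPM in 24-mo WT. The highest HGPS mouse lay just under the lowest 2-mo WT mouse. Pdgfd fell in HGPS against 2-mo WT (log2 fold change -0.43 ± 0.09, adjusted p = 0.000734) and was lower than in 24-mo WT (-0.29 ± 0.09, adjusted p = 0.0105). In 24-mo WT against 2-mo WT the value was -0.14 ± 0.09 (adjusted p = 0.365). The HGPS mice of library numbers 19 to 23 were at 171 to 185 CPM and those of numbers 48 to 50 at 206 to 249 CPM. The fall against 2-mo WT was -0.60 in the first 3 and -0.26 in the other 3 (adjusted p = 6.57e-05 and 0.0417), and against 24-mo WT the last 3 alone gave -0.12 (adjusted p = 0.31). What the library number stands for is not given in the labels. The 2-mo WT libraries carry numbers 41 to 46 and the 24-mo WT libraries numbers 24 to 34. Between these WT groups, library number and age cannot be told apart. With both fat scores as covariates the fall was -0.22 ± 0.10 (adjusted p = 0.132), and the part of the fat in it was not tested.

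Pdgfb encodes PDGF-B, the endothelial signal that recruits mural cells through PDGFRβ (ENSMUSG00000000489, chromosome 15, 79995874 to 80014977). It was at 13.1, 18 and 25 CPM in HGPS, at 8.52, 12.1 and 17.0 CPM in 2-mo WT and at 16.4, 17.8 and 21.5 CPM in 24-mo WT. The ranges of all 3 groups overlapped. Pdgfb rose 1.47-fold in HGPS (0.55 ± 0.15, adjusted p = 0.00592) and 1.46-fold in 24-mo WT (0.54 ± 0.15, adjusted p = 0.0228). The 24-mo WT call was lost without 2-mo WT replicate 2 (0.45, adjusted p = 0.0557) or replicate 5 (0.52, adjusted p = 0.054). Between HGPS and 24-mo WT the log2 difference was 0.01, with a 95% interval from -0.31 to 0.32. The HGPS mice of library numbers 48 to 50 alone gave 0.31 against 2-mo WT (adjusted p = 0.166). With both fat scores as covariates neither rise passed the test, at 0.44 ± 0.21 in HGPS (adjusted p = 0.138) and 0.47 ± 0.16 in 24-mo WT (adjusted p = 0.0614), and the part of the fat in them was not tested.

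Pdgfa encodes PDGF-A, which binds PDGFRα (ENSMUSG00000025856, chromosome 5, 138976014 to 138997370). It was at 42.4, 52.4 and 55.3 CPM in HGPS, at 39.2, 45.5 and 49.8 CPM in 2-mo WT and at 47.1, 51.9 and 68.1 CPM in 24-mo WT. The groups overlapped, and no comparison passed the test. The log2 fold changes were 0.15 ± 0.09 in HGPS (adjusted p = 0.171) and 0.26 ± 0.09 in 24-mo WT (adjusted p = 0.0674), the latter reaching 0.29 (adjusted p = 0.0479) without 24-mo WT replicate 6.

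**Figure D2:**
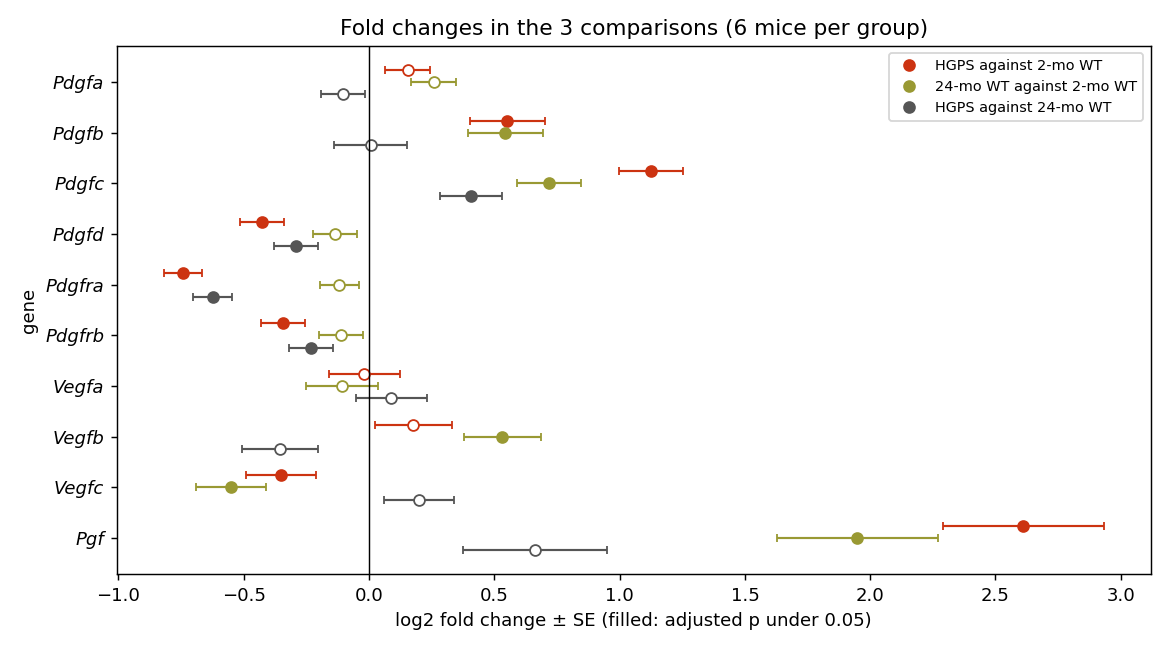
Log2 fold changes (horizontal axis) ± SE of the 10 genes in HGPS against 2-mo WT, 24-mo WT against 2-mo WT and HGPS against 24-mo WT, with filled points for an adjusted p under 0.05. Pgf lies farthest to the right at 2.61 in HGPS and 1.95 in 24-mo WT, and Pdgfra farthest to the left at -0.74 in HGPS.

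Pdgfra encodes the receptor PDGFRα, a marker of fibroblasts in the vessel wall. It was at 114, 136 and 146 CPM in HGPS, at 195, 224 and 248 CPM in 2-mo WT and at 187, 198 and 226 CPM in 24-mo WT. All 6 HGPS mice lay below every mouse of both WT groups. Pdgfra fell in HGPS against 2-mo WT (-0.74 ± 0.08, adjusted p = 7.65e-07) and was lower than in 24-mo WT (-0.62 ± 0.08, adjusted p = 2.86e-06). In 24-mo WT against 2-mo WT the value was -0.12 ± 0.08 (adjusted p = 0.362). Of the 9 fibroblast markers, 3 fell in HGPS (21.2% of all genes) and 4 in 24-mo WT (5.38%), and none rose in either. Their summed level was 5871 to 9989 CPM in HGPS, 8444 to 10984 CPM in 2-mo WT and 5469 to 7855 CPM in 24-mo WT. With the fibroblast score as a covariate the HGPS value was -0.69 ± 0.12 (adjusted p = 0.000641), and with the smooth muscle score -0.52 ± 0.16 (adjusted p = 0.157). The smooth muscle score had no overlap between HGPS and 2-mo WT, so in that fit score and group cannot be told apart. The fibroblast score barely overlapped, at 7.62 to 8.07 in HGPS and 8.05 to 8.27 in 2-mo WT, so its fit hardly separates them either.

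Pdgfrb encodes the receptor PDGFRβ of mural cells (ENSMUSG00000024620, chromosome 18). It was at 325, 362 and 374 CPM in HGPS, at 426, 448 and 490 CPM in 2-mo WT and at 337, 424 and 495 CPM in 24-mo WT. The HGPS mice lay below all 2-mo WT mice, while the 24-mo WT mice overlapped with both groups. Pdgfrb fell in HGPS against 2-mo WT (-0.34 ± 0.09, adjusted p = 0.00417). Against 24-mo WT it was -0.23 ± 0.09 (adjusted p = 0.0372), a call that was lost in 6 of the 12 fits without 1 mouse, namely HGPS replicates 2, 3 and 6 and 24-mo WT replicates 1, 4 and 5, with adjusted p-values up to 0.0954. Within groups Pdgfrb went opposite to the macrophage score (r = -0.880 over the 18 mice, which share libraries and scaling). With that score as a covariate the HGPS value was 0.10 ± 0.09 (adjusted p = 0.529). The macrophage score had no overlap between HGPS and 2-mo WT, so in that fit score and group cannot be told apart. Of all 15210 genes, 1912 stayed changed in it. Of the 5 pericyte markers tested, 4 fell in HGPS and 1, Vtn, rose (1.62 ± 0.56, adjusted p = 0.0258) from a median of 0.358 to 1.38 CPM. The summed level of the list was 1342 to 1810 CPM in HGPS and 2363 to 2902 CPM in 2-mo WT. In 24-mo WT it was 4576 to 6139 CPM, and 2 of these markers rose and 0 fell against 2-mo WT. Pdgfrb was at -0.11 ± 0.09 in that comparison (adjusted p = 0.476). The part of either cell type in the Pdgfrb result was not tested.

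Vegfa encodes VEGF-A, the main endothelial growth factor (ENSMUSG00000023951, chromosome 17, 46016993 to 46032369). It was at 15, 19.8 and 24.3 CPM in HGPS, at 17.0, 19.9 and 22.8 CPM in 2-mo WT and at 12.3, 18.4 and 22.6 CPM in 24-mo WT. The 3 groups overlapped almost wholly. The log2 fold change in HGPS was -0.02 with a 95% interval from -0.32 to 0.29, and in 24-mo WT it was -0.11 with an interval from -0.41 to 0.20. Vegfa differed between mice of a group along with fat markers. Its deviations from the group means had r = 0.910 with the white fat score over the 18 mice, and the genes most like it among 10778 were Cidec (r = 0.921), a lipid droplet gene, Cfd (r = 0.919), which encodes the adipocyte protease adipsin, and Sh2b2 (r = 0.917). These genes share libraries and scaling, and Cidec and Cfd are themselves in the white fat list. The summed white fat level was 943 to 3454 CPM in HGPS, 278 to 1195 CPM in 2-mo WT and 244 to 1054 CPM in 24-mo WT. With both fat scores as covariates Vegfa was lower in HGPS than in 2-mo WT (-0.47 ± 0.10, adjusted p = 0.00256) and lower in 24-mo WT (-0.29 ± 0.07, adjusted p = 0.0169). The part of fat left on the vessel in the Vegfa level was not tested.

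**Figure D3:**
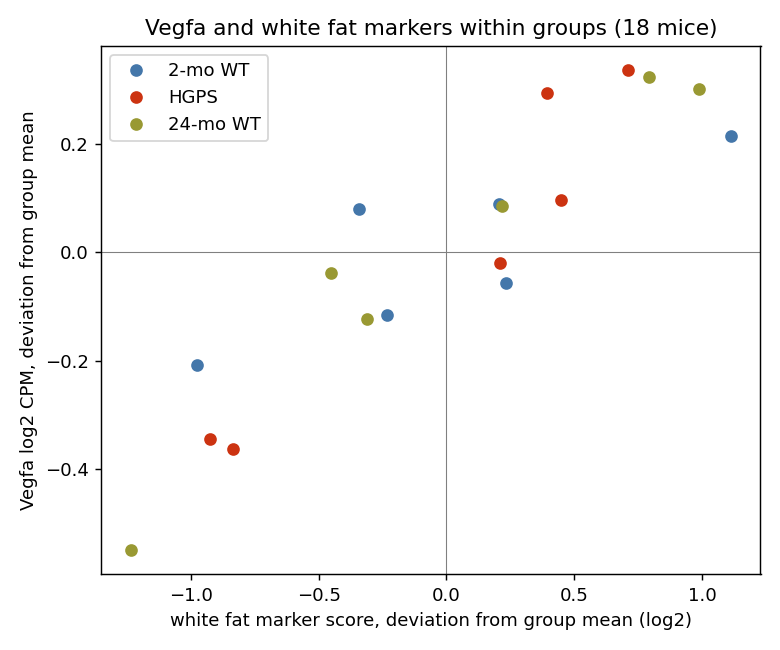
Deviation of Vegfa log2 CPM from its group mean (vertical axis) against the deviation of the white fat marker score (horizontal axis, mean log2 CPM of 8 markers), 1 point per mouse, coloured by group. Over the 18 mice the points rise together (r = 0.910), with r from 0.821 to 0.970 within the 3 groups of 6.

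Vegfb encodes VEGF-B, a VEGFR1 ligand (ENSMUSG00000024962, chromosome 19, 6982473 to 6987651). It was at 6.03, 8.43 and 11.5 CPM in HGPS, at 6.00, 7.72 and 9.55 CPM in 2-mo WT and at 9.38, 11 and 14.2 CPM in 24-mo WT. Vegfb rose 1.45-fold in 24-mo WT (0.53 ± 0.15, adjusted p = 0.0299), a call lost without 2-mo WT replicate 2, 3 or 4 or 24-mo WT replicate 1 or 2, with adjusted p-values up to 0.0704. In HGPS the value was 0.18 ± 0.15 (adjusted p = 0.377). The HGPS mice of library numbers 19 to 23 were at 8.91 to 11.5 CPM and those of numbers 48 to 50 at 6.03 to 7.94 CPM, and taken alone they gave 0.43 (adjusted p = 0.041) and -0.10 (adjusted p = 0.695). Against 24-mo WT the HGPS value was -0.35 ± 0.15 (adjusted p = 0.0621), and it passed the test without HGPS replicate 2 (-0.45) or 3 (-0.41) or 24-mo WT replicate 3 (-0.40), and after thinning to equal depth (adjusted p = 0.0416). Fat scores as covariates gave -0.72 ± 0.20 (adjusted p = 0.0124), the HGPS mice of library numbers 48 to 50 alone -0.63 ± 0.17 (adjusted p = 0.00887) and those of numbers 19 to 23 alone -0.10 ± 0.16 (adjusted p = 0.634).

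Vegfc encodes VEGF-C, a growth factor of lymphatic endothelium (ENSMUSG00000031520, chromosome 8, 54077606 to 54187096). It was at 4.93, 6.33 and 8.59 CPM in HGPS, at 6.21, 8.48 and 9.22 CPM in 2-mo WT and at 4.33, 5.82 and 6.77 CPM in 24-mo WT. All ranges overlapped, and only the lowest 2-mo WT mouse reached into the 24-mo WT range. Vegfc fell in 24-mo WT (-0.55 ± 0.14, adjusted p = 0.0139). In HGPS the fall was -0.35 ± 0.14 with an adjusted p of 0.0469. That call was lost in 10 of the 12 fits without 1 mouse, with adjusted p-values up to 0.105, and it held only without HGPS replicate 4 or 2-mo WT replicate 2. The HGPS mice of library numbers 48 to 50 alone gave -0.17 ± 0.16 (adjusted p = 0.473), and fat scores as covariates gave -0.16 ± 0.19 (adjusted p = 0.573). Among the 4 lymphatic endothelial markers 1 rose in HGPS and none changed in 24-mo WT by edgeR (0 had an unadjusted p under 0.05, and DESeq2 called 0).

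Per kb of exon, the only scale on which different genes are compared here, Pdgfd and Pdgfrb led in all 3 groups. In 2-mo WT they stood at 84.6 ± 4.39 and 82.6 ± 4.80 CPM per kb (SD, n = 6), with overlapping ranges. Pdgfra followed at 22.1 ± 1.75 and Pdgfa at 14.4 ± 1.14 CPM per kb, each apart from its neighbours. Vegfb (4.80), Vegfa (4.62), Pdgfc (4.33), Vegfc (3.39) and Pdgfb (3.02 CPM per kb) came next, and no neighbours among these were apart. Pgf was last, at 0.935 ± 0.313 CPM per kb. In HGPS the order of the means differed. Pdgfc, at 9.44 ± 1.56 CPM per kb, had a higher mean than Vegfa, Vegfb, Vegfc and Pgf. Vegfd was not compared on this scale. Pdgfc was apart from Pgf, the next in order, but its lowest mouse (7.17 CPM per kb) lay just under the highest Vegfb mouse (7.19 CPM per kb). Pgf, at 5.73 ± 1.07, overlapped with Vegfb at 5.46 ± 1.27. Pdgfra, at 13.2 ± 1.37 CPM per kb, overlapped with Pdgfa at 16.1 ± 1.68. The place of Pdgfc in 2-mo WT depended on the length used. Per kb of the longest transcript its 2-mo WT mean (6.26) was already above those of Vegfb (6.01) and Vegfa (5.73), with overlapping ranges.

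**Figure D4:**
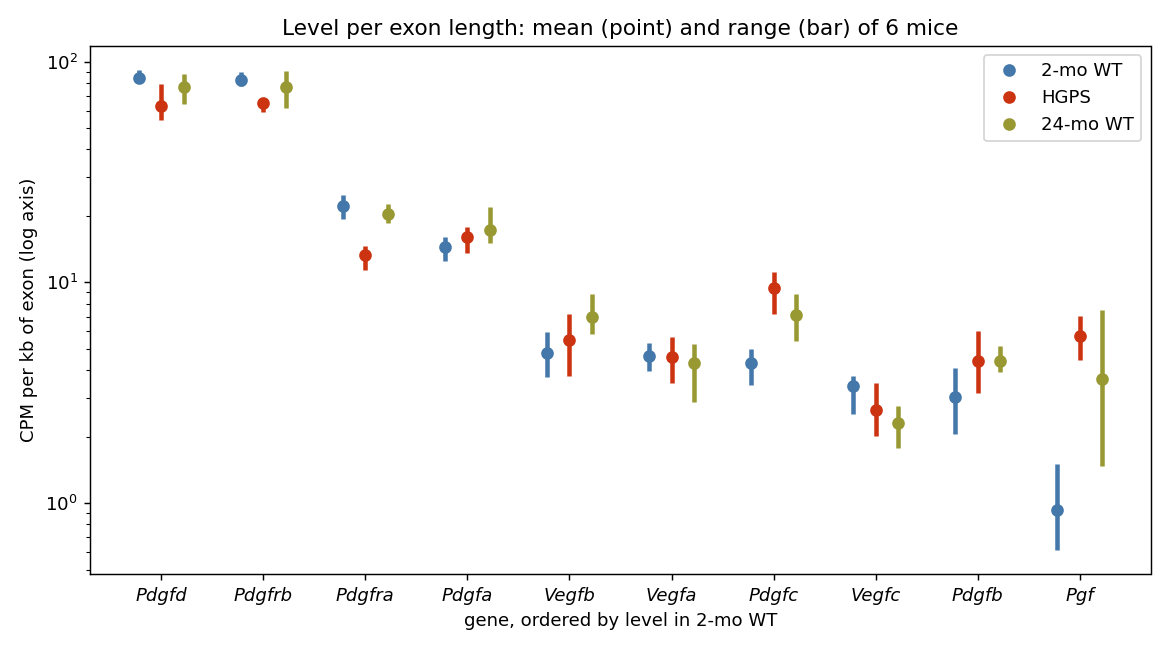
Level of each gene in CPM per kb of exon (logarithmic axis), ordered by the 2-mo WT mean, with the mean as a point and the range of 6 mice as a bar for each group. Pgf moves from 0.935 CPM per kb in 2-mo WT to 5.73 in HGPS and 3.64 in 24-mo WT.

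Ratios of 2 genes within a mouse do not depend on the scaling between libraries, and 6 ratios were compared by two-sided exact permutation tests with 6 mice in each group, adjusted over the 12 tests. The smallest p such a test can give is 0.00216. Of the 12 tests, 6 had an adjusted p under 0.05. The log2 ratio of Pgf to Vegfa was -2.90 ± 0.46 (SD) in 2-mo WT, -0.23 ± 0.17 in HGPS (exact permutation test, adjusted p = 0.00519) and -0.98 ± 1.10 in 24-mo WT (exact permutation test, adjusted p = 0.00866). These ratios are of counts not divided by length, so they compare groups and not the levels of the 2 genes. The log2 ratio of Pdgfc to Pdgfd was higher by 1.55 in HGPS and by 0.85 in 24-mo WT, with no overlap with 2-mo WT in either (exact permutation test, adjusted p = 0.00519 for both). The log2 ratio of Pdgfra to Pdgfrb was -1.03 ± 0.13 in 2-mo WT and -1.43 ± 0.10 in HGPS (exact permutation test, adjusted p = 0.00519), so the alpha receptor fell more than the beta receptor. In 24-mo WT that ratio was -1.02 ± 0.23 (exact permutation test, adjusted p = 0.948). Vegfa to Vegfb was lower by 0.67 in 24-mo WT (exact permutation test, adjusted p = 0.00519) and differed by -0.21 in HGPS (exact permutation test, adjusted p = 0.168). The other 4 tests, on Pdgfa to Pdgfb and Vegfc to Vegfa, had adjusted p-values from 0.0519 to 0.168 by the same exact permutation test.

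**Figure D5:**
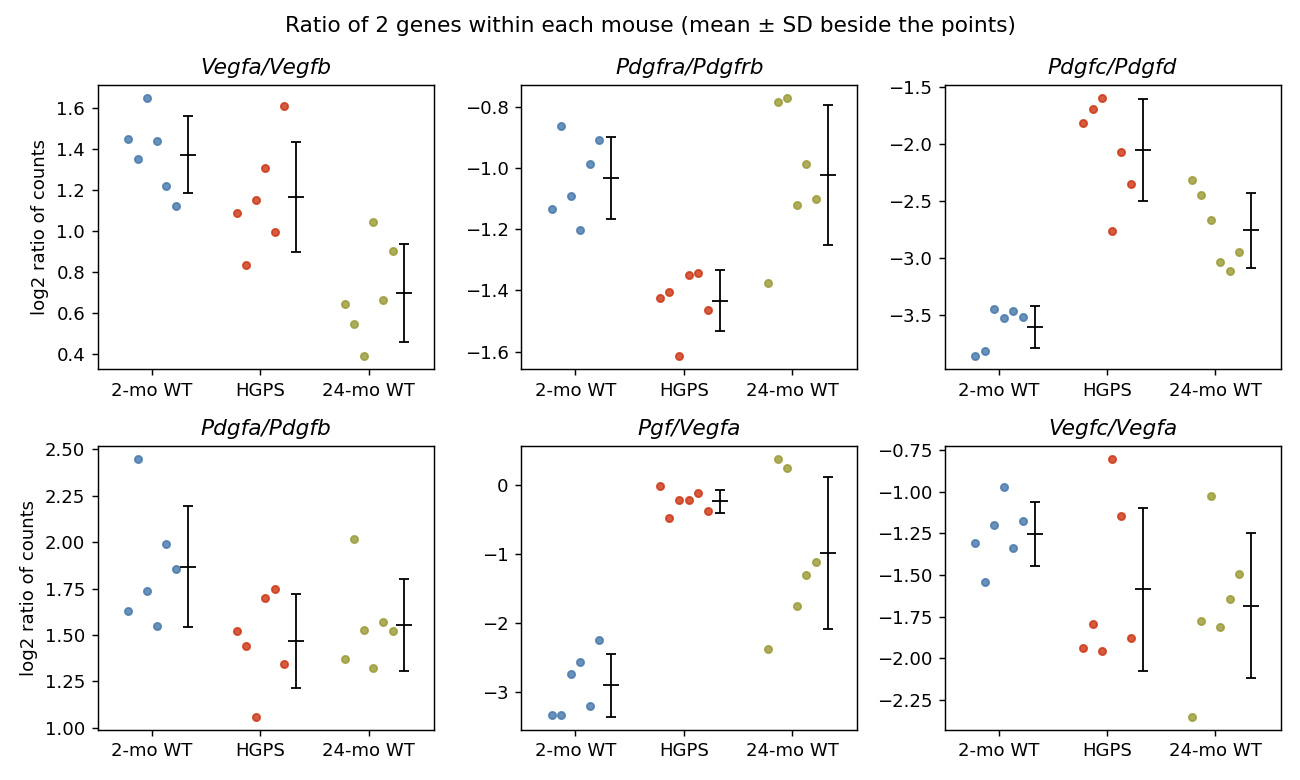
Log2 ratio of the counts of 2 genes within each mouse for 6 gene pairs, 1 point per mouse, with the mean ± SD beside each group of 6. The Pgf to Vegfa ratio of the HGPS mice sits near 0 (mean -0.23), above all 2-mo WT mice (mean -2.90).

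Of the relatives of these genes, Vegfd, a VEGFR3 ligand, fell in HGPS from a median of 37.9 to 29.3 CPM (-0.41 ± 0.14, adjusted p = 0.0187) and was at 0.17 ± 0.13 in 24-mo WT (adjusted p = 0.465). Pdgfrl, a gene for a PDGF receptor-like protein, fell in HGPS (-0.56 ± 0.13, adjusted p = 0.00198) and in 24-mo WT (-0.97 ± 0.13, adjusted p = 5.4e-05). Of the 5 VEGF receptors and co-receptors, 3 rose in HGPS and 1 in 24-mo WT by edgeR, beside 22% and 6.29% of all genes. DESeq2 called 3 in each comparison with 2-mo WT, where it called 6685 and 2090 of all 15210 genes. Flt1, the receptor gene for Pgf, rose in both (0.81 ± 0.12 and 0.72 ± 0.12), with medians of 46 and 41.5 CPM against 25.8 CPM. Nrp2, a neuropilin co-receptor, rose in HGPS (1.30 ± 0.22, adjusted p = 0.000113). Kdr, the VEGFR2 gene, rose in HGPS with a wide spread, 7.43 to 31.1 CPM against 4.13 to 16.0 CPM (1.25 ± 0.42, adjusted p = 0.0226). Nrp1 was at 0.14 ± 0.07 in HGPS (adjusted p = 0.0963), and its level exceeded that of 24-mo WT (0.34 ± 0.07, adjusted p = 0.000319). Flt4 was at 0.00 ± 0.23 in HGPS (adjusted p = 0.99).

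Beyond the 10 genes, 86 further genes of these pathways were listed and 85 passed the filter on low counts. In HGPS against 2-mo WT 28 rose and 14 fell, or 49.4% beside 43.2% of all genes, with a median log2 fold change of 0.11. In 24-mo WT 13 rose and 6 fell, or 22.4% beside 11.7%, with a median of 0.07. Among 12 genes that process or bind the ligands, 7 rose and 1 fell in HGPS, or 66.7% beside 43.2% of all genes. Plat, which encodes tissue plasminogen activator, a protease that activates PDGF-C, rose in HGPS (0.56 ± 0.11, adjusted p = 0.000428) and in 24-mo WT (0.36 ± 0.11, adjusted p = 0.0342). Sparc, a matricellular protein that binds PDGF and VEGF, rose in HGPS (0.72 ± 0.10) and fell in 24-mo WT (-1.43 ± 0.10, adjusted p = 2.13e-08). Ctsd, the gene of the lysosomal protease cathepsin D, rose in HGPS (0.66 ± 0.07, adjusted p = 1.08e-06), and Pcsk5, a proprotein convertase, fell (-0.49 ± 0.09, adjusted p = 0.000277).

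Among 23 carriers of the receptor signal, 4 rose and 5 fell in HGPS and 14 did not pass. That is 39.1% changed, beside 43.2% of all genes. Hras, a small GTPase, rose (0.73 ± 0.10, adjusted p = 1.32e-05). The adaptor Nck2 (-0.43 ± 0.08), the kinase Src (-0.31 ± 0.07) and the kinase subunit Pik3cb (-0.30 ± 0.07) fell. In 24-mo WT Pik3cb fell (-0.39 ± 0.07, adjusted p = 0.000828) and the phospholipase Plcg1 rose (0.21 ± 0.05, adjusted p = 0.00665). Of the 12 brakes on receptor signalling, 4 rose in each comparison with 2-mo WT and none fell. That is 33.3% changed in each, beside 43.2% of all genes in HGPS and 11.7% in 24-mo WT. In HGPS the 4 were the phosphatase gene Ptpn1 (0.33 ± 0.10), Dusp6, whose product dephosphorylates ERK (0.40 ± 0.12), and the inhibitors Spry4 (0.51 ± 0.16) and Spred1 (0.24 ± 0.10, adjusted p = 0.0488). In 24-mo WT the smallest adjusted p-values were those of Dusp6 (0.69 ± 0.12, adjusted p = 0.000783) and Spry1 (0.52 ± 0.12, adjusted p = 0.0067).

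Of 10 genes known to respond to VEGF in endothelium, Pgf among them, 3 rose and 3 fell in HGPS. That is 60.0% changed, beside 43.2% of all genes. Esm1, which encodes endocan and is a marker of endothelial tip cells, was at 10.3, 17.7 and 27.7 CPM in HGPS and at 1.60, 2.48 and 4.95 CPM in 2-mo WT. The groups did not overlap, and Esm1 rose by 2.57 ± 0.30 on the log2 scale (adjusted p = 2.92e-06). In 24-mo WT it was at 0.81 ± 0.31 (adjusted p = 0.0949). Rcan1, an inhibitor of calcineurin, rose in HGPS (0.91 ± 0.19), and Cd34, a surface protein of endothelial and adventitial cells, fell (-0.58 ± 0.10, adjusted p = 0.000187). Of 13 hypoxia response genes tested, 5 rose and 2 fell in HGPS, or 53.8% beside 43.2% of all genes. Adm, the gene of adrenomedullin, fell in HGPS (-0.92 ± 0.17) and in 24-mo WT (-1.10 ± 0.17), Bnip3 (0.46 ± 0.11) and Pdk1 (0.40 ± 0.12) rose in HGPS, and Arnt, the partner of the hypoxia-inducible factors, fell (-0.28 ± 0.07). Ndrg1 rose in 24-mo WT (0.98 ± 0.08, adjusted p = 6.57e-08) and was at -0.09 ± 0.08 in HGPS. Among 10 genes of other angiogenic factors and their receptors, Met, the receptor of hepatocyte growth factor, rose in HGPS (1.02 ± 0.20, adjusted p = 0.000562), as did Fgf2 (0.37 ± 0.11) and Angpt1 (0.77 ± 0.24). Fgf1 fell in HGPS (-0.39 ± 0.10). In 24-mo WT Fgf2 (0.63 ± 0.11) and Hgf, the ligand of Met (0.78 ± 0.19), were the 2 rises of smallest adjusted p.

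Within groups, members paired in both directions. As deviations from group means over the 18 mice, Pdgfa went with Pdgfc (r = 0.681) and Vegfa with Vegfb (r = 0.638). Pdgfd went opposite to Vegfb (r = -0.796) and Pdgfb (r = -0.752), and Pdgfrb opposite to Pgf (r = -0.789). The gene most like Pgf was Maff (r = 0.946), a small Maf transcription factor gene, followed by Osmr (r = 0.897), the oncostatin M receptor gene, and Hrct1 (r = 0.875). Pdgfd was most like Ogn (r = 0.943), which encodes osteoglycin, Bclaf1 (r = 0.932) and Ensa (r = 0.931). Pdgfra was most like Abca8a (r = 0.891), and Pdgfrb like Prdm6 (r = 0.895), a smooth muscle regulator. The highest correlations of Pdgfa, Pdgfb, Pdgfc, Vegfb and Vegfc were 0.809 with Pgp, 0.832 with Zfp710, 0.878 with Fth1, 0.875 with 1700037H04Rik and 0.805 with Gstt1. All of these come from libraries that the 2 genes share, and from the highest of 10778 values per gene.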

How the data were processed

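RNA of 18 descending aortas was sequenced, 6 mice per group. The authors depleted ribosomal RNA, made stranded paired-end libraries, assigned reads with salmon to GENCODE M23 (GRCm38.p6) and used tximport to sum them by gene. What the authors deposited are estimated counts, whole and not normalized. The submitters' processing notes also name Bowtie 0.12.2. Groups come from the sample labels, and 0 columns lacked a sample. Symbols, coordinates and exon lengths are from GENCODE M21 (GRCm38), which held 54107 of the 54281 identifiers. The authors' own testing used DESeq2.

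The 15210 genes that reached 10 counts in 6 or more mice were normalized by TMM and tested with edgeR 4.0.16 (glmQLFit, glmQLFTest, R 4.3.3), all 3 groups in 1 fit with 15 residual degrees of freedom, with Benjamini-Hochberg adjustment. Each SE was obtained as |log2 fold change| / √F. Log2 CPM used a prior count of 2, and marker scores average log2 CPM over a list's tested genes. Ratios used counts + 0.5 and exact permutation tests (scipy 1.17.1). Correlations used genes of at least 5 CPM on average. Deviations of same-numbered mice of different groups had r from -0.16 to 0.17 over 18 pairs, so the numbers do not pair the mice. All 45 same-group pairs of mice differed by more than sampling noise (chi-square per degree of freedom 8.09 to 92.0).

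The members and lists were chosen with earlier results of these data known. Beyond the members, the genes named are Vegfd, Pdgfrl and the VEGF receptors and co-receptors, up to 4 genes of smallest adjusted p in HGPS and 2 in 24-mo WT from each other list, and the 3 genes most like each member. Alternatives were DESeq2 1.42.0, other normalizations and filters, a replicate block, 2 groups alone, mice left out, fat scores as covariates, HGPS mice by library number, equal depth, other pseudocounts and transcript length. Covariates from 4 other marker scores were chosen after seeing the data. The fits were tested on simulated data.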

Additional observations from a re-analysis of the deposited data

Results flagged for a closer look

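In 2-mo WT, replicate 2 had the lowest Vegfc level, 6.21 CPM, and stood apart from the other 5 mice, the nearest of which was at 8.24 CPM. The gap was 0.673 of the whole range of the group, above Dixon's 95% critical value for 6 samples. Chance marks about 1 in 20 groups in this way, and 30 groups (10 genes in 3 groups) were examined. Without this mouse the fall of Vegfc in HGPS kept its call.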

How the results depend on the processing

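Of 670 member fold changes under other settings, 600 kept direction and side of the threshold, 40 lost their call, 14 gained one and 16 changed sign. The calls of Pgf, Pdgfc and Pdgfra in HGPS against 2-mo WT held in all of these settings. The sign changes lay around 0. Library numbers 19 to 23 alone gave Vegfa 0.10 in HGPS against 2-mo WT. Numbers 48 to 50 alone gave Vegfb -0.10 there, and Pdgfb -0.23 and Vegfa -0.013 against 24-mo WT. Fat scores as covariates gave Vegfb -0.22 against 2-mo WT, and Pdgfb -0.028 and Vegfa -0.18 against 24-mo WT. Without 1 mouse, Vegfa in HGPS ranged from -0.090 to 0.051 against 2-mo WT and from -0.0050 to 0.16 against 24-mo WT, Pdgfb against 24-mo WT from -0.099 to 0.092, and log2 Pdgfra/Pdgfrb in 24-mo WT from -0.042 to 0.079. Members changed without 1 mouse numbered 6 to 7 in HGPS against 2-mo WT, 3 to 6 in 24-mo WT (3 without 2-mo WT replicate 2) and 3 to 6 in HGPS against 24-mo WT. Members past the study's cut-offs numbered 3 in every such fit of HGPS against 2-mo WT, 0 to 2 in 24-mo WT (0 without 2-mo WT replicate 1, 2, 4 or 5 or 24-mo WT replicate 3, and 2 only without 24-mo WT replicate 4), and 0 to 1 in HGPS against 24-mo WT (0 without HGPS replicate 3). In those fits 15012 to 15193 genes were tested. Of all genes, 5795 to 6563 changed in HGPS against 2-mo WT and 1104 to 1580 passed the study's cut-offs. In 24-mo WT 1401 to 1737 changed and 231 to 294 passed the cut-offs. In HGPS against 24-mo WT 6586 to 7136 changed and 1560 to 1927 passed them. The ratio tests passed numbered 6 to 8. With the replicate block, whose pairing the data do not bear out, members past the cut-offs in 24-mo WT numbered 0, as with the 2 groups alone, and Pgf in HGPS against 24-mo WT was 0.77 (adjusted p = 0.035). Of all genes in 24-mo WT, 219 of 15210 passed the cut-offs with the block and 248 of 14345 with the 2 groups alone. Against 24-mo WT, fat scores or library numbers 48 to 50 gave 2 members changed, Pdgfra and Vegfb, and 0 past the cut-offs. Vegfb was not changed in the main fit, and the calls of Pdgfc, Pdgfd and Pdgfrb were lost in both settings. Over all genes there, the fat scores left 4362 of 15210 changed and 714 past the cut-offs. Numbers 48 to 50 left 5054 of 14812 changed and 977 past them. The cause was not tested.

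Of the covariates chosen after seeing the data, the smooth muscle score left 0 members changed and 0 past the cut-offs in HGPS against either WT group, where 87 of 15210 genes in all remained changed against 2-mo WT, and 1 past them in 24-mo WT. Of all genes, 5 stayed past the cut-offs against 2-mo WT with that score. The macrophage score left 0 past the cut-offs in HGPS against either group, 2 changed against 24-mo WT and 1 past the cut-offs in 24-mo WT. Of all 15210 genes, the macrophage score left 97 past the cut-offs in HGPS against 2-mo WT. In HGPS against 24-mo WT it left 3121 changed and 424 past them, and in 24-mo WT it left 313 past them. The fibroblast score left 4 changed and 1 past the cut-offs in HGPS against 2-mo WT, and 0 and 0 in 24-mo WT. Counts over all genes are not given here for the fibroblast score, or for the smooth muscle score in comparisons with 24-mo WT. There, a loss of member calls cannot be told from a loss over all genes. The fibroblast score had no overlap between 24-mo WT and 2-mo WT. The smooth muscle score had none between HGPS and either WT group, and the macrophage score none between HGPS and 2-mo WT. In those fits score and group cannot be told apart. Signs turned with the macrophage score for Pdgfrb (0.10 against 2-mo WT, 0.17 against 24-mo WT), Vegfa (0.22 against 2-mo WT) and Pgf (-0.29 against 24-mo WT); with the smooth muscle score, against 24-mo WT, for Pdgfb (-0.17), Pdgfrb (0.016), Vegfa (-0.53) and Pgf (-0.21); with the fibroblast score for Vegfa (0.15 in HGPS and 0.11 in 24-mo WT against 2-mo WT) and Pdgfrb in 24-mo WT (0.010); and with the endothelium score for Pdgfb against 24-mo WT (-0.0097). Counts were lowest for Pgf in 2-mo WT, 30 to 85 per mouse.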
